A study of Mus musculus with 3 samples.

Results

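The astrocyte identity genes Aqp4, Gfap, Aldh1l1, Gja1, Gjb6, Sox9, S100b, Aldoc, Apoe and Clu (10 genes) were followed in RNA immunopurified with tagged ribosomes from the cerebral cortex of adult Kcnip2-TRAP mice (line NIDA115, C57BL/6J). The study's design names neurons as the cells profiled. The 10 genes were picked by symbol as astrocyte markers other than genes of the glutamate cycle and ion pumps. All 10 symbols were present among the 32531 gene rows of the count tables, and all 10 passed the filter on low counts. The 3 libraries formed 1 group of untreated immunopurified (IP) samples, replicates 1, 2 and 3, each carrying the Kcnip2-EGFP/Rpl10a transgene. In translating ribosome affinity purification (TRAP), a fluorescent tag on the ribosomal protein Rpl10a is driven by control elements of 1 gene, and an antibody to the tag recovers ribosomes with their messenger RNA. The driver gene here, Kcnip2, encodes an auxiliary subunit of potassium channels. Tagging follows where the transgene of this 1 line is active. No input, unbound or untagged library was analysed here, so the values are levels within the precipitate and not enrichment over whole cortex. Whether each library stands for a different mouse is not stated, and the p-values then measure a spread between libraries that could be purely technical.

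Astrocytes are glial cells that take up transmitter, buffer potassium and supply neurons with metabolites and lipid. Their identity genes encode a gliogenic transcription factor (Sox9), an intermediate filament (Gfap), a water channel of the perivascular endfeet (Aqp4), connexins of the astrocyte gap junction network (Gja1 and Gjb6), secreted lipid carriers (Apoe and Clu), a calcium-binding protein (S100b) and metabolic enzymes (Aldoc and Aldh1l1). Several of these genes are not exclusive to astrocytes: microglia also express Apoe, oligodendrocytes also express S100b, and Aldoc is a classic marker of a subset of cerebellar Purkinje neurons.

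Depth was 11602248, 13635132 and 14174384 gene counts in replicates 1, 2 and 3. Levels are given as CPM (counts scaled to a library size of 1e6 after TMM adjustment) and, for most comparisons between genes, as CPM per kilobase of annotated exon. Shares of summed counts and sums over gene lists are not divided by length. Replicate 1 stood apart in 2 respects, and their bearing on the astrocyte identity genes was not tested. In that library 61.9% of the tallied reads fell in genes, against 67.6% and 70.7% in replicates 2 and 3. The nuclear RNA Malat1 was at 8790 CPM there, against 2574 and 1802 CPM. Kcnip2, the gene that drives the tag, was at 189, 155 and 148 CPM in replicates 1, 2 and 3.

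The start regions of Gfap, S100b and Gja1 are shown here as examples, picked by the order of their CPM over the libraries. Gfap was highest in replicate 1, S100b varied least, and Gja1 was lowest in replicate 1. None of them passed the test of variation between libraries described further on (edgeR adjusted p = 0.997, 0.997 and 0.963). The Gfap start in RefSeq lies inside the gene span given further on. The windows run from 250 bases before to 50 bases after the RefSeq start (GRCm38.p6) and lie at chr11:102897151-102897450 (minus strand) for Gfap, chr10:76253586-76253885 (plus strand) for S100b and chr10:56377050-56377349 (plus strand) for Gja1. Capitals mark matches, on either strand, to the letters TTGGC (core of nuclear factor I sites), ACAAAG (SOX), TTCNNNGAA (STAT) or TATAAA (core promoter).
Gfap: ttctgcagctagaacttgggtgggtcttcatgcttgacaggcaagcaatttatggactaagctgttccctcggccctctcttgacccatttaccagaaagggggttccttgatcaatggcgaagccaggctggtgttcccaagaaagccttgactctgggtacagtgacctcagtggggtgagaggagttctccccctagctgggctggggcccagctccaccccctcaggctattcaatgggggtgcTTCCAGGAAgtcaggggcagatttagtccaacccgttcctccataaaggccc
S100b: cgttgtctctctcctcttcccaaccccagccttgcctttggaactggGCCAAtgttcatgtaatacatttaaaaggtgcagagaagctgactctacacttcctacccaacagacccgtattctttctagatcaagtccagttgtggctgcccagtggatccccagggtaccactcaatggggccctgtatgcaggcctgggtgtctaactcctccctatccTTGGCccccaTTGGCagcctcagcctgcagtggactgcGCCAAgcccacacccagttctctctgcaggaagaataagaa
Gja1: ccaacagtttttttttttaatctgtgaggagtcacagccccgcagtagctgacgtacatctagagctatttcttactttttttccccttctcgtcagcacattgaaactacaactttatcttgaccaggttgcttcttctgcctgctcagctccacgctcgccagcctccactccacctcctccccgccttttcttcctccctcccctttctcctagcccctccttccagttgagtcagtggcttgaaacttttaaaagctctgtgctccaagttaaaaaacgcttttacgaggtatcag
The Gfap window held 1 match to TTCNNNGAA, which 8.3% of the 32851 RefSeq windows examined hold. The S100b window held 4 matches to TTGGC, which 46.7% of windows hold at least once. The Gja1 window held no match to any of these motifs. Windows of 7 of the 10 genes were examined. Those of Aqp4, Clu and Sox9 were not among them, which does not show that RefSeq lacks a start for these genes. TTGGC was present in 3 of the 7 (Aldoc, Apoe and S100b). ACAAAG was present in 1 of 7 (Apoe, against 18.7% of all windows) and TATAAA in 0 of 7 (13.6% of all windows). GC content was 55.7% for Gfap, 53.7% for S100b and 47.7% for Gja1, against a median of 52.7% over all windows. A match describes letters in a window and says nothing of binding.

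The 10 genes spanned a wide range of levels, from Aldoc down to Aldh1l1 and Gja1. Per kilobase of exon, Aldoc averaged 162 ± 44.0 CPM per kilobase and Gja1 1.65 ± 0.473 (SD, n = 3 libraries here and throughout). In replicates 1, 2 and 3, the 10 genes together held 7893, 14676 and 12079 counts. That is 0.0680%, 0.108% and 0.0852% of all gene counts. Aldoc alone supplied 60.4% ± 2.68 of these counts and Clu 17.5% ± 0.855.

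**Figure D1:**
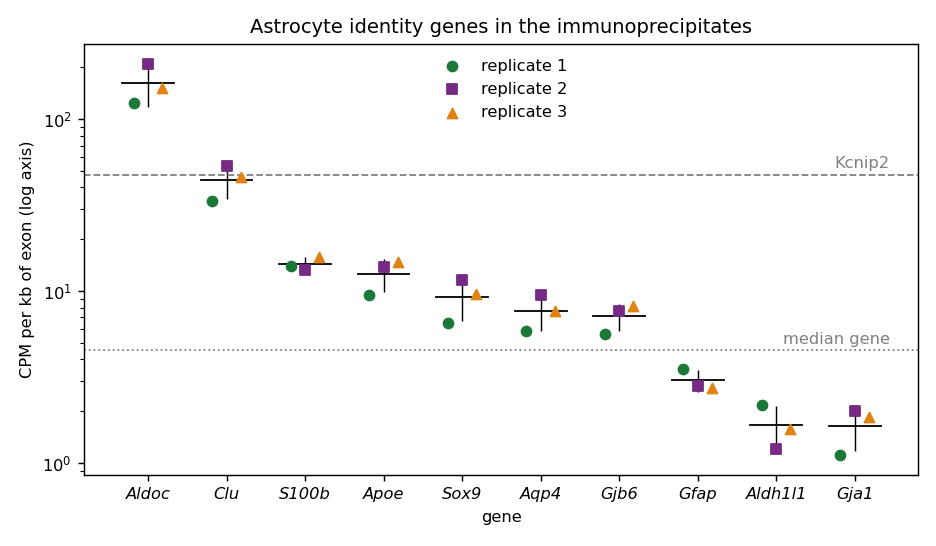
CPM per kilobase of exon (vertical log axis) of the 10 astrocyte identity genes in the 3 libraries (points), with the mean (horizontal bar) and SD (vertical line); the dashed and dotted lines mark the mean level of Kcnip2 and of the median tested gene. Aldoc lies above both lines in each library, and Gfap, Aldh1l1 and Gja1 lie below both.

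Of the metabolic enzymes, Aldoc (chromosome 11, 78322968 to 78327781, GRCm38), which encodes the glycolytic enzyme aldolase C, was at 403, 685 and 497 CPM in replicates 1, 2 and 3. Replicate 2 was the highest and replicate 1 the lowest, a 1.70-fold range. Per kilobase of exon, Aldoc was at 124, 210 and 152 CPM per kilobase, above 99.0% of the 12099 genes tested with a known length. Aldh1l1 (chromosome 6, 90486427 to 90600203), which encodes a cytosolic folate dehydrogenase, was at 9.81, 5.46 and 7.09 CPM, with replicate 1 the highest and replicate 2 the lowest. In replicate 2 the value rested on 74 counts, with an exact 95% Poisson interval of 4.28 to 6.85 CPM that covers counting error only. Aldh1l1 thus had 2.38%, 0.790% and 1.41% of the summed Aldh1l1 and Aldoc counts in replicates 1, 2 and 3, with exact 95% binomial intervals of 1.97% to 2.85%, 0.621% to 0.991% and 1.15% to 1.71% that do not overlap. Aldh1l1 and Aldoc ran in opposite order over the libraries, so a shifted share follows from pairing them. These intervals also cover counting error only. Neither gene passed the test of variation described further on (edgeR adjusted p = 0.997 for Aldh1l1 and 0.301 for Aldoc). In the GENCODE M21 annotation, exons of Aldh1l1 share 499 bases with the antisense gene Gm15756 and 105 bases with Gm45901 on the same strand, neither of which has a row in the count tables, so reads of Gm45901, and of Gm15756 if strand was not used in counting, may be among the Aldh1l1 counts.

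The secreted lipid carriers differed in level. Clu (chromosome 14, 65968483 to 65981547), which encodes clusterin, was at 115, 183 and 158 CPM in replicates 1, 2 and 3, and Apoe (chromosome 7, 19696109 to 19699188), which encodes apolipoprotein E, at 20.2, 29.3 and 31.3 CPM. Both were lowest in replicate 1. Per kilobase of exon, Clu averaged 44.3 ± 10.1 and Apoe 12.6 ± 2.75 CPM per kilobase, and Apoe had 15.1% ± 1.37 of the summed Apoe and Clu counts, a share between 13.8% and 16.5% in each library. Of 15 other lipoprotein genes (carriers, lipid transporters and receptors), 11 passed the count filter. The highest per kilobase was Apod, which encodes another lipid carrier, at 23.4 ± 6.30 CPM per kilobase. The lipoprotein receptor gene Lrp1 was at 6.59 ± 0.873 and the lipid efflux transporter gene Abca1 at 1.89 ± 0.247 CPM per kilobase. The lowest with a read was Apoc1, with 0, 0 and 3 counts, and Lrp2 had 0 counts.

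S100b (chromosome 10, 76253853 to 76261159) was the steadiest of the 10 genes, at 20.8, 19.6 and 23.5 CPM in replicates 1, 2 and 3, a 1.20-fold range. It has the shortest annotated exon length of the 10 genes, and was at 14.4 ± 1.33 CPM per kilobase. Of 10 other genes of its family list, the S100 genes and their receptor gene Ager, 4 passed the count filter and S100a8 and Ager had 0 counts. S100a11, the highest of these, was at 9.62 ± 0.566 CPM per kilobase, and S100a4 was the lowest with a read, at 0, 1 and 0 counts.

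Sox9 (chromosome 11, 112782224 to 112787760), the gliogenic transcription factor gene, was at 26.9, 47.9 and 39.8 CPM in replicates 1, 2 and 3, lowest in replicate 1. Per kilobase of exon it averaged 9.24 ± 2.56 CPM per kilobase. Its paralog Sox8 was at 7.99 ± 3.91 and Sox10, the oligodendrocyte lineage member of this subfamily, at 5.50 ± 1.38 CPM per kilobase. Sox8 was also lowest in replicate 1, whereas Sox10 was lowest in replicate 3. Of 13 other gliogenic factor genes, 12 passed the count filter. The highest was Nfix, a nuclear factor I gene that neurons also express, at 33.05 ± 1.517 CPM per kilobase. The lowest, the Notch target gene Hes5, did not pass the filter and was at 0.724 ± 0.402.

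The endfoot and filament genes were at modest levels. Aqp4 (chromosome 18, 15389496 to 15410982), the water channel gene, was at 36.6, 58.8 and 47.4 CPM in replicates 1, 2 and 3, and Gfap (chromosome 11, 102887336 to 102900912) was at 14.8, 11.8 and 11.5 CPM. Aqp4 was lowest and Gfap highest in replicate 1. Aqp4 averaged 7.64 ± 1.78 and Gfap 3.01 ± 0.440 CPM per kilobase. Of the other 7 aquaporin genes, Aqp11 passed the count filter, at 0.295 ± 0.0213 CPM per kilobase, Aqp9 was the lowest with a read at 1, 0 and 0 counts, and Aqp3, Aqp5 and Aqp8 had 0 counts, which allows up to 0.213 to 0.256 CPM in a library (3 counts). Of 10 genes of the endfoot complex, 8 passed the count filter. Dag1, which encodes dystroglycan, led them at 17.2 ± 3.09 CPM per kilobase, Sntb1, which did not pass, was the lowest with a read at 0.121 ± 0.0356, and the channel gene Trpv4 had 0 counts.

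Among intermediate filament genes, Gfap was at 3.01 ± 0.440 CPM per kilobase. Vim, the vimentin gene of immature and reactive astrocytes and of vessels, was at 2.45 ± 1.25 CPM per kilobase. The neurofilament gene Nefm, the highest of 9, was at 260 ± 24.3 CPM per kilobase, and the peripheral neuron filament gene Prph, which did not pass the filter and was the lowest, at 0.149 ± 0.0637. Of 19 genes that rise in reactive astrocytes, Vim included, 10 passed the count filter. Of those 10, 1 was above the median gene by the test described further on and 8 below it, against 44.6% and 42.7% of all tested genes. The highest was Serpina3n, a secreted protease inhibitor gene, at 7.37 ± 1.498 CPM per kilobase. Steap4 was the lowest with a read, at 0, 0 and 3 counts, and the chemokine gene Cxcl10 had 0 counts.

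The connexin genes Gja1 (chromosome 10, 56377330 to 56402513) and Gjb6 (chromosome 14, 57123303 to 57133611) were counted at similar levels in replicates 2 and 3, with Gja1 the lower in replicate 1. Gja1 was at 11.3, 20.4 and 18.9 CPM in replicates 1, 2 and 3 and Gjb6 at 15.1, 20.3 and 21.7 CPM. Both were lowest in replicate 1. Gja1 supplied 42.9%, 50.1% and 46.5% of the summed counts of the pair, with exact 95% binomial intervals of 37.3% to 48.6%, 45.8% to 54.3% and 42.4% to 50.7% that overlap. Per kilobase the distance between them depended on the divisor. Gja1 has 10257 bases of annotated exon in all its transcripts together and 3889 in the longest one, and was at 1.65 CPM per kilobase of the first and 4.34 of the second. Gjb6 was at 7.12 and 9.05 CPM per kilobase by the same divisors. Of 16 other connexin and pannexin genes, 5 passed the count filter: Panx2, a neuronal pannexin gene and the highest at 12.2 ± 3.11 CPM per kilobase, Gjc3, a connexin gene of oligodendrocytes, at 6.68 ± 1.01, Gjd2, the connexin gene of neuronal gap junctions, Gjb2, which is also made by astrocytes and meninges, at 2.79 ± 0.750, and Panx1. A further 6 had 0 counts, and the vascular gene Gja5 was the lowest with a read, at 0, 2 and 1 counts.

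**Figure D2:**
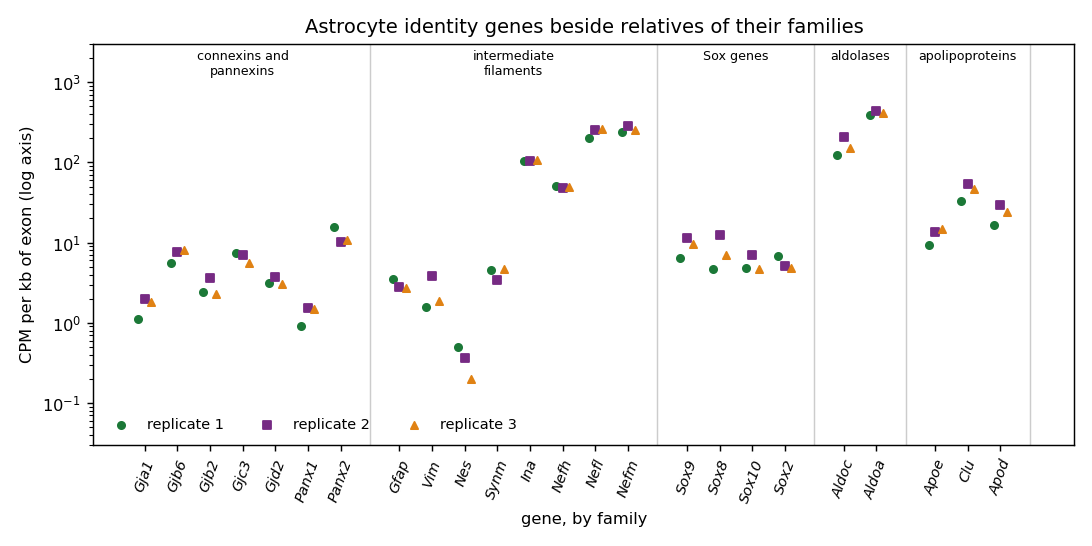
CPM per kilobase of exon (vertical log axis) in each of the 3 libraries (points) for 7 of the astrocyte identity genes beside relatives from their families. Aldoc lies below Aldoa in each library, Gfap lies below the neurofilament genes Nefh, Nefl and Nefm, and Gja1 lies below Gjb6.

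Aldolase counts came mainly from the ubiquitous paralog. Aldoc supplied 26.3%, 34.8% and 29.0% of the summed Aldoc and Aldoa counts in replicates 1, 2 and 3, with exact 95% binomial intervals of 25.6% to 26.9%, 34.2% to 35.4% and 28.4% to 29.6%. The libraries thus differed by more than counting error. Aldoc averaged 162 ± 44.0 CPM per kilobase, beside 416 ± 26.2 for Aldoa. Reads that fit both paralogs equally would not be counted for either if non-unique alignments were dropped. Of the 10 genes listed as other aldolases and folate enzymes, 8 passed the count filter. Of these 8, 1 (Aldoa) was above the median gene and 7 below it, against 44.6% and 42.7% of all tested genes.

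Ordered by CPM per kilobase of exon, the genes ran Aldoc, Clu, S100b, Apoe, Sox9, Aqp4, Gjb6, Gfap, Aldh1l1 and Gja1. Of the 9 pairs of neighbours in this order, 6 had the same order in 3 of 3 libraries. Aldoc exceeded Clu by 1.86 ± 0.13 on the log2 scale, Clu exceeded S100b by 1.60 ± 0.39, and Gjb6 exceeded Gfap by 1.23 ± 0.48. S100b and Apoe (log2 difference 0.21 ± 0.32, higher in 2 of 3 libraries), Aqp4 and Gjb6 (0.09 ± 0.20, 2 of 3) and Aldh1l1 and Gja1 (0.01 ± 0.87, 1 of 3) did not differ beyond their spread. A two-sided exact sign-flip test over 3 libraries cannot go below p = 0.25, and the 6 pairs with 1 order stood at that value (0.375 after Benjamini-Hochberg adjustment over 9 pairs). Divided by the longest transcript, S100b and Apoe changed places, as did Sox9 and Aqp4, and Aldh1l1 and Gja1.

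The level of each gene was then set against the median gene of its own library and against Kcnip2, with an edgeR quasi-likelihood test across all 12099 genes with a known length. Relative to the median gene, 7 of the 10 genes were higher (44.6% of all tested genes were) and 3 were lower (42.7% of all tested genes were). The median log2 ratio was 0.90 for the 10 genes, against 0.0052 over all tested genes. Fitted ratios are given with the SD of the 3 libraries' own log2 ratios. Aldoc was 35.9-fold above the median gene (log2 ratio 5.16, SD 0.40, higher in 3 of 3 libraries, edgeR adjusted p = 3.86e-16) and Clu 9.80-fold (3.29, SD 0.36, 3 of 3, edgeR adjusted p = 3.15e-18). S100b, Apoe, Sox9, Aqp4 and Gjb6 were 3.17-, 2.79-, 2.05-, 1.69- and 1.58-fold above it, with edgeR adjusted p between 5.33e-12 and 0.000208. Gfap was below it (log2 ratio -0.59, SD 0.19, lower in 3 of 3 libraries, edgeR adjusted p = 0.00599), as were Aldh1l1 (-1.46, SD 0.41, 3 of 3, edgeR adjusted p = 2.29e-05) and Gja1 (-1.45, SD 0.47, 3 of 3, edgeR adjusted p = 3.96e-07). The Gfap call was lost without replicate 2 (log2 ratio -0.49, adjusted p = 0.0588), without replicate 3 (-0.49, adjusted p = 0.0845) and with the longest transcript as divisor (-0.36, adjusted p = 0.0720), and turned round with no count filter (0.45, adjusted p = 0.0162), a setting that raised the ratio of each of the 10 genes and at which Aldh1l1 did not pass (-0.42, adjusted p = 0.0934). With counts not divided by length, 5 genes were above the median gene and 2 below it by edgeR. S100b (0.03, adjusted p = 0.829), Gjb6 (-0.13, adjusted p = 0.452) and Gja1 (-0.30, adjusted p = 0.115) then lost their calls, and Apoe kept its call at 0.37 (adjusted p = 0.0132). Gja1 kept its call at -0.50 with the longest transcript as divisor (adjusted p = 0.0140).

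**Figure D3:**
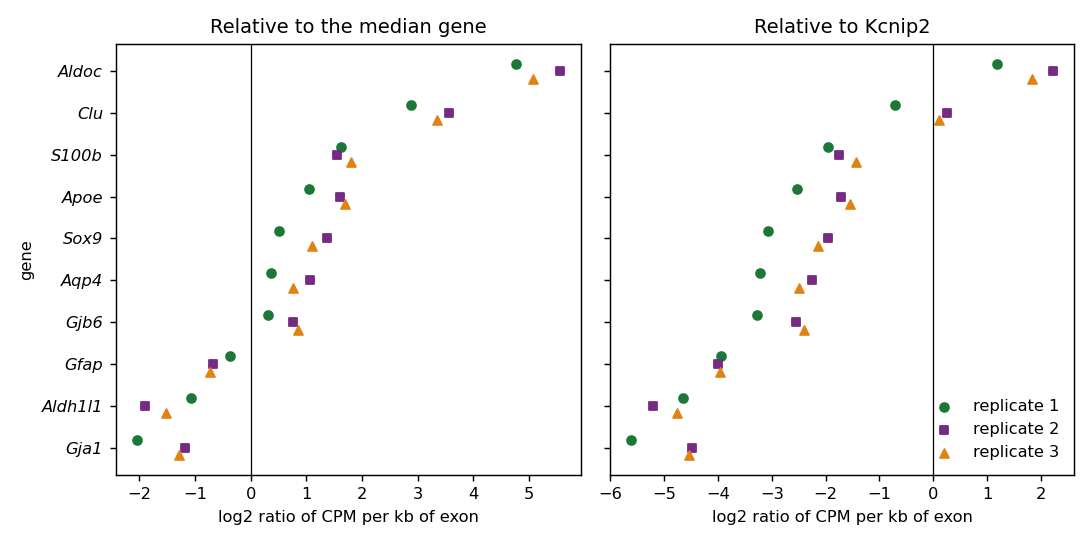
Log2 ratio of CPM per kilobase of exon (horizontal axis) of each astrocyte identity gene to the median tested gene of the same library (left) and to Kcnip2 (right), 1 point per library. Points right of the line at 0 are higher than that gene: Aldoc in both panels, and Clu to either side of Kcnip2.

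Kcnip2, the gene behind the tag, lay above most of the astrocyte identity genes. It was at 54.5, 44.7 and 42.7 CPM per kilobase in replicates 1, 2 and 3. Aldoc was 3.51-fold above it (log2 ratio 1.81, SD 0.53, higher in 3 of 3 libraries, edgeR adjusted p = 2.15e-42), as were 4.31% of all tested genes. The other calls were 8 genes below it, as were 92.3% of all tested genes, from S100b at 3.25-fold below (log2 ratio -1.70, SD 0.27) to Aldh1l1 at 28.9-fold below (-4.85, SD 0.30), each lower in 3 of 3 libraries. Gfap kept nearly the same ratio to Kcnip2 in each library, with log2 ratios of -3.95, -4.00 and -3.97. Clu did not differ from Kcnip2 by the test (log2 ratio -0.06, SD 0.52, higher in 2 of 3 libraries, edgeR adjusted p = 0.712). Without replicate 1, Clu was above Kcnip2 (log2 ratio 0.18, adjusted p = 0.0317), as it was with the longest transcript as divisor (0.71, adjusted p = 4.72e-07). All ratios share the 1 Kcnip2 or median level of their library and a spread pooled over genes, which the test treats as known, so the p-values are smaller than the data warrant.

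Between libraries, 7 of the 10 genes were lowest in replicate 1 (Aldoc, Aqp4, Clu, Sox9, Gja1, Gjb6 and Apoe), as were 36.4% of the 12509 tested genes. Their levels in replicate 1 lay between 0.578-fold (Gja1) and 0.718-fold (Gjb6) of the mean of replicates 2 and 3. S100b and Aldh1l1 were lowest in replicate 2 (2 of 10, against 32.2% of tested genes) and Gfap in replicate 3 (1 of 10, against 31.3%). In replicate 1 Gfap was at 1.28-fold and Aldh1l1 at 1.56-fold of that mean, and S100b at 0.966-fold. The highest library was replicate 1 for 2 genes (36.5% of tested genes), replicate 2 for 5 (32.4%) and replicate 3 for 3 (31.0%). Of the tested genes, 18.6% were lowest in replicate 1 and highest in replicate 2, as were 5 of the 10. The median log2 deviation of the 10 genes from their own means was -0.35, 0.22 and 0.09 in replicates 1, 2 and 3, against 0.0010, 0.0012 and 0.00033 over all tested genes. In bulk RNA, fewer cells of a type and less RNA per cell cannot be told apart.

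**Figure D4:**
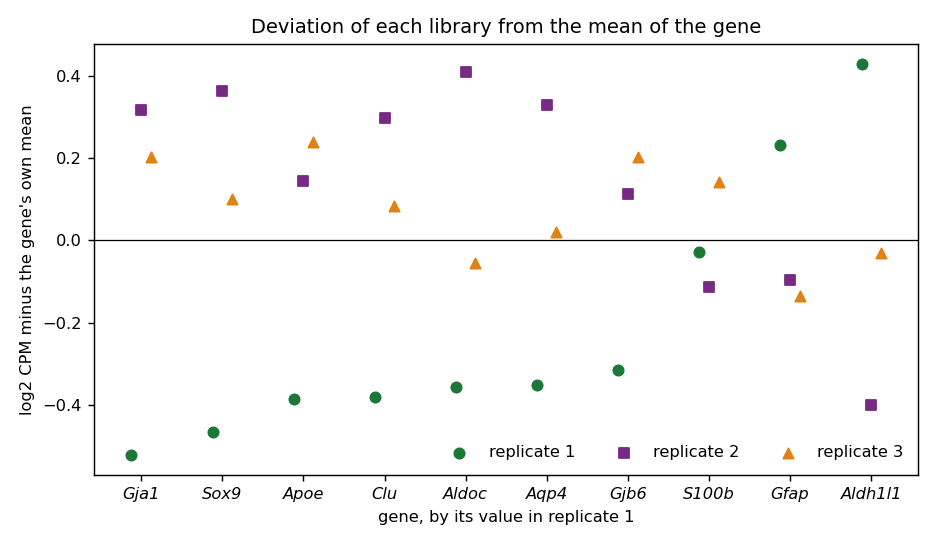
Log2 CPM of each astrocyte identity gene in each library minus the mean of that gene (vertical axis), with genes ordered by their value in replicate 1. Replicate 1 is the lowest point for 7 genes, from Gja1 to Gjb6, and the highest for Gfap and Aldh1l1.

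No gene of the 10 passed edgeR's test of variation between libraries beyond genes of the same level (0 of 10, against 0.0959% of 12509 genes, or 12 genes). Below 0.05 before adjustment were 3 of the 10 genes, against 5.78% of all tested genes. These were Aldoc (edgeR adjusted p = 0.301), Clu (edgeR adjusted p = 0.606) and Sox9 (edgeR adjusted p = 0.806). DESeq2 flagged 0 of 10 as dispersion outliers. With no count filter Aldoc passed (edgeR adjusted p = 0.0461). The ratio of Gfap to Gja1 differed between replicate 1 and the other libraries by more than counting error: Gfap had 56.7% of the summed counts of the pair in replicate 1 (exact 95% binomial interval 50.9% to 62.3%), 36.6% in replicate 2 (32.1% to 41.3%) and 37.9% in replicate 3 (33.2% to 42.6%). The pair joins a gene highest in replicate 1 with a gene lowest there, so a shifted share follows from that choice. The intervals cover counting error only. This compares libraries, not conditions.

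Other astrocyte genes were also often lowest in replicate 1. All 7 genes of the glutamate cycle and pump list were lowest in replicate 1, against 36.4% of all tested genes. This was not particular to astrocyte genes: 7 of 7 endothelial and mural markers and 8 of 11 pan-neuronal markers past the filter were lowest there. It was less frequent among the endfoot complex genes (4 of 8), the gliogenic factor genes (3 of 12) and the microglial markers (3 of 7). Slc1a3, a glutamate transporter gene, was at 38.6, 90.3 and 78.3 CPM in replicates 1, 2 and 3 (edgeR adjusted p = 0.0897 for variation). Of 35 further astrocyte-enriched genes, 31 passed the count filter and 21 of those were lowest in replicate 1. The receptor gene Ntsr2 was among 4 that were highest there, at 16.1, 7.004 and 9.85 CPM. Relative to the median gene, 7 of 7 glutamate cycle and pump genes and 10 of 31 further astrocyte-enriched genes were higher, against 44.6% of all tested genes. Lower were 0 and 16 of them, against 42.7% of all tested genes. The highest per kilobase were Glul, the glutamine synthetase gene, at 398 ± 95.1 CPM per kilobase, and Sparcl1, a secreted matrix protein gene that neurons also express, at 526 ± 6.19. The lowest were Slc1a3 at 8.09 ± 3.17 and Paqr6 at 1 count in each library.

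**Figure D5:**
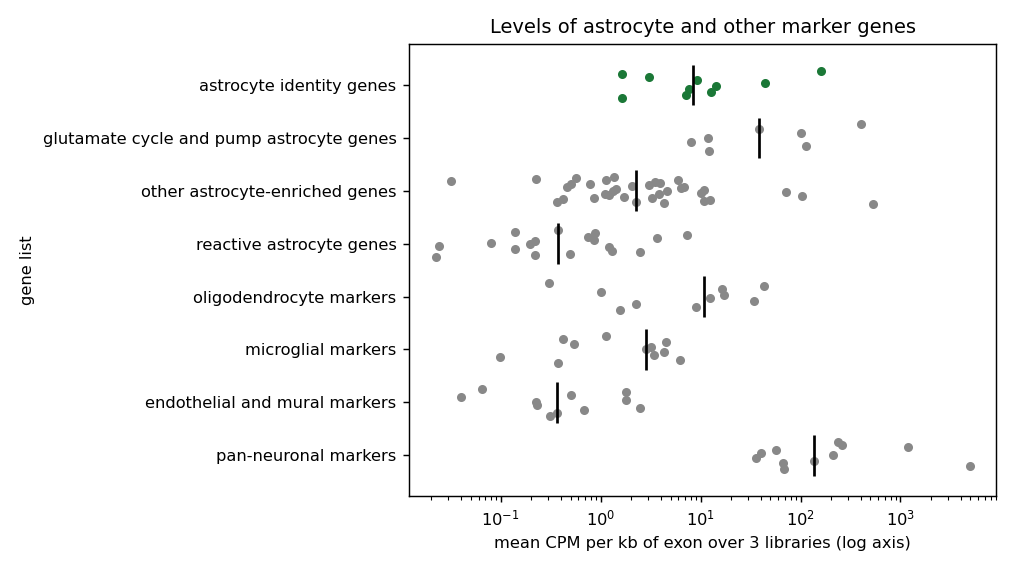
Mean CPM per kilobase of exon over 3 libraries (horizontal log axis) of each gene with a read, for the 10 astrocyte identity genes (green) and 7 other marker lists (grey); the bar is the median of the list, genes at 0 included. The astrocyte identity genes have a median of 8.44, below the glutamate cycle and pump genes at 38.5 and the pan-neuronal markers at 137.

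The levels of markers of other cell types, some of which express some of the 10 genes, are given here by library, and their part in these results was not tested. The 11 microglial markers, of which 7 passed the count filter, summed to 51.4, 81.2 and 80.0 CPM in replicates 1, 2 and 3, and none was at 0 counts. The 10 oligodendrocyte markers, 9 of them past the filter, summed to 641, 781 and 595 CPM, the 6 precursor markers to 74.5, 107 and 92.7 CPM, and the 11 endothelial and mural markers, 7 past the filter, to 24.3, 38.6 and 32.8 CPM. The 6 meningeal and fibroblast markers, 5 past the filter, summed to 68.4, 79.6 and 81.7 CPM. The 7 choroid plexus and ependymal markers, 2 past the filter, summed to 6.14, 48.4 and 8.86 CPM, with Folr1 at 0 counts and 569 counts of the choroid plexus gene Ttr in replicate 2 alone. By mean CPM per kilobase, the highest and lowest markers with a read were C1qb (6.28) and Trem2 (0.0983) of the microglial list, Olig1 (11.4) and Cspg4 (0.779) of the precursor list, and Vtn (2.45) and Cldn5 (0.0402) of the vascular list. In the meningeal list they were Igf2 (7.45) and Col1a2 (0.273), in the choroid list Ttr (11.8) and Rarres2 (0.00925), and in the neuronal list Snap25 (4934) and Tubb3 (35.5). The 11 pan-neuronal markers summed to 40579, 43511 and 46994 CPM. Each of these sums but those of the oligodendrocyte list was lowest in replicate 1. Scaled to the summed pan-neuronal markers in place of TMM, 7 of the 10 astrocyte identity genes were again lowest in replicate 1, against 20.9% of all tested genes. Snap25 made up most of that sum, at 31407, 33078 and 36038 CPM in replicates 1, 2 and 3, so this scaling rests mainly on 1 gene.

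The mean profile of the 10 genes over replicates 1, 2 and 3 was -0.21, 0.14 and 0.08 on the log2 scale. It averages genes that moved in opposite directions. In replicate 1 Gfap and Aldh1l1 were at 0.23 and 0.43, whereas the median of the 10 genes was -0.35. Nearness to this mean is therefore not likeness to each of the 10 genes. Of 8299 other genes at 10 CPM or more, 806 (9.71%) stayed within 0.1 of this mean in every library, 3 of them among 23 astrocyte genes of these lists. The 5 closest genes were Zbtb2, Cic, Gdi2, Sez6l2 and Fhod3, none of which is in the marker lists used here. With 3 libraries, such likeness describes these samples and no more.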

How the data were processed

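Each library came as a deposited table of raw counts by gene symbol. The submitters' processing notes name STAR (2.0.0e), HTSeq and mm10. The strand setting, counting mode and gene annotation were not given in these sources. Rows without a gene entered neither library sizes nor tests: in replicates 1, 2 and 3, reads outside any feature were 16.4%, 14.2% and 12.8% of the tallied reads, non-unique alignments 19.4%, 15.8% and 13.8%, and ambiguous reads 2.37%, 2.51% and 2.65%.

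CPM used TMM-scaled library sizes (edgeR 4.0.16, R 4.3.3), and 3 counts correspond to 0.213 to 0.256 CPM. Genes were filtered with filterByExpr (minimum count 10), which left 12509, of which 12099 had a union exon length from GENCODE M21 (GRCm38, equal to mm10; 23161 rows of 32531 matched by symbol and 737 by an older symbol). Ratios to the median gene and to Kcnip2 were tested with edgeR's quasi-likelihood fit with those levels as offsets. glmQLFTest accepts no intercept-only design, so its F statistic was formed from the deviances. Variation between libraries was tested as the quasi-dispersion over the fitted trend. Both tests were checked on simulated data, with Benjamini-Hochberg adjustment over all genes at 0.05. The simulation gave every gene the same length and dispersion and fixed the reference level in advance. It therefore cannot show how far treating that level as known makes the p-values too small. Log2 deviations used a prior count of 2. limma 3.58.1 and DESeq2 1.42.0 were alternatives, as were other scalings, filters and lengths and leaving out each library. 

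The 10 genes, the marker lists and the tests were chosen with earlier results of these data known. By rule, all 10 genes are named, with the highest and lowest member of each partner list, their closest paralogs and the 5 genes of the most alike profile. Other genes were named after their values were seen, and some that the rule names are not reported here. Kcnip2 is the gene behind the transgene, and its native reads cannot show which cells were tagged.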

Additional observations from a re-analysis of the deposited data

How the results depend on the processing

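No paired analysis was possible because the libraries form 1 group. Against the median gene, 82 of 90 gene ratios kept their direction and their side of the threshold over 9 alternatives, and against Kcnip2 88 of 90 did. Of the 9, DESeq2 size factors could not move a ratio, because the size of a library cancels between a gene and its reference. Dropping the count filter could hardly move the ratios to Kcnip2. These tallies therefore overstate how far the ratios were put to a test. The count of genes below the median gene fell to 1 of 10 with no count filter. Without each replicate in turn it was 2 to 3, and 7 were above it each time. Without dividing by length, 5 genes were above the median gene and 2 below: Gjb6 turned to a log2 ratio of -0.13, and S100b (0.03) and Gja1 (-0.30) did not pass either. With no count filter Gfap turned to 0.45. Clu turned to 0.71 relative to Kcnip2 with the longest transcript as divisor, which raised the genes above Kcnip2 to 2, and ranged between -0.24 and 0.18 when each replicate was left out in turn, above Kcnip2 without replicate 1. Genes above Kcnip2 were 1 to 2 when each replicate was left out in turn. With no count filter, 1 of the 10 genes varied between libraries, among 66 of the 18703 genes with a read. With the filter, 12 of 12509 genes varied, and 4 genes did without replicate 2. DESeq2 flagged 28 genes as dispersion outliers, which is a different measure. The causes were not tested. Aldh1l1 rests on 74 to 115 counts a library, so small differences were not detectable there.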
